A study of Mus musculus with 6 samples.

Results

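The 10 genes described here encode the MHC class I antigen presentation machinery and the inducible subunits of the proteasome. They were chosen by symbol (*H2-K1*, *H2-D1*, *B2m*, *Tap1*, *Tap2*, *Tapbp*, *Psmb8*, *Psmb9*, *Psmb10* and *Nlrc5*) from the 56748 genes of the count table, and all 10 were found there. Bulk RNA sequencing covered 6 primary osteocyte cultures from mouse long bones, 3 of WT C57BL/6J background and 3 labelled cKO, with floxed *Gsdmd* alleles (*Gsdmd* fl/fl) and a Dmp1-Cre transgene. The paper describes the deletion under the *Dmp1* promoter as specific to osteocytes, and in which cells of a culture it took place was not tested here. All 6 cultures were kept for 7 days and then received 10 ng/mL lipopolysaccharide (LPS) over 3 h and, over another 3 h, 20 µg/mL aluminum hydroxide, a treatment meant to induce pyroptosis. No unstimulated libraries were analysed here, so every difference is one between genotypes under stimulation. The methods give an age of 7 weeks for C57BL/6 donors of osteocytes, and no separate age was found for the cKO donors. The labels do not say whether the 3 cultures of a group came from separate mice, so p-values measure only the spread between these cultures, which may be technical.

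MHC class I molecules show peptides from inside a cell to CD8 T cells. The peptides are cut by the proteasome, carried into the endoplasmic reticulum by the transporter TAP, and loaded with the help of tapasin onto a heavy chain that pairs with β2-microglobulin. Interferons switch on most of these genes together, and under interferon the immunoproteasome subunits PSMB8, PSMB9 and PSMB10 take the place of PSMB5, PSMB6 and PSMB7 in newly made proteasomes. NLRC5 is the transactivator of class I genes, as CIITA is of class II genes. Osteocytes, like nearly all nucleated cells, can carry class I molecules.

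Before the results, the libraries were checked against their labels. *Gsdmd*, the gene to be deleted, was counted 609, 699 and 549 times in WT and 885, 937 and 1045 times in the libraries labelled cKO, a log2 fold change of 0.69 (standard error 0.083; edgeR adjusted p = 2.27e-06). The gene therefore went against its label, its count pools floxed and other exons, and every direction below rests on the labels. *Xist* is the RNA that silences an X chromosome in female cells. It was counted 44817 to 51216 times per library in cKO and 0 to 4 times in WT. The Y-linked *Ddx3y* was counted 4785, 5455 and 4033 times in WT and 0 times in every cKO library. Sex and genotype therefore cannot be told apart. The methods of the paper describe the mice as matched for age and sex, and these counts differ from that. Of 9 osteocyte markers, 3 had enough counts to test. *Pdpn*, an early osteocyte marker also found on other stromal cells, was at 233.8 CPM in WT and 193.0 CPM in cKO and lower, at a log2 fold change of -0.28, and *Ackr3* (327 and 329 CPM) and *Irx5* (5.25 and 6.45 CPM) did not pass the test. CPM are counts per 1000000 of TMM-scaled library size. The markers of mature osteocytes were at or near 0. *Sost* and *Dkk1* had 0 counts in all 6 libraries, which allows about 0.0603 to 0.0758 counts per 1000000 of the unscaled library total. *Dmp1* had 0, 0 and 4 counts in WT and 2, 6 and 4 in cKO. Macrophage markers were higher in cKO in 16 of 16 cases, each by at least 2-fold, none of them at 0, and their summed level was 1223 to 1382 CPM in the WT libraries and 6613 to 6942 CPM in the cKO libraries. *Csf1r*, the macrophage growth factor receptor, had a mean of 26.1 CPM in WT (SD 1.63, n = 3) and of 234.9 CPM in cKO (SD 8.39, n = 3). *Ms4a7* and *C1qc* were higher by 3.80 and 3.32 on the log2 scale. Of 8 dendritic cell markers, 2 had enough counts to test and *Itgax* was higher, with *Flt3* and *Siglech* at 0. Of 8 neutrophil markers, *S100a8* and *Camp* were tested and higher, with *S100a9* at 0. The call of *Camp* (log2 fold change 0.49) was lost with DESeq2 (adjusted p = 0.0513), with upper quartile normalization (edgeR adjusted p = 0.0795) and when any single library other than WT replicate 2 was left out (edgeR adjusted p of 0.0637 to 0.170). Of 7 endothelial markers, 6 were tested, of which 2 were higher and 4 lower, each by at least 2-fold, and their summed level was 10.8 to 12.0 CPM in WT and 19.4 to 21.8 CPM in cKO. *Kdr* (2.04) and *Vwf* (1.67) were higher on the log2 scale and *Cdh5* (-3.08) was lower, while *Emcn* was counted 56, 59 and 35 times in WT and 0, 0 and 2 times in cKO, and *Tek* 56, 54 and 36 times against 2, 0 and 5 times. None of 13 B, T and NK cell markers had enough counts to test, and 8 of them were at 0 in every library. Osteoblast and stromal markers summed to 16822 to 19033 CPM in WT and 12084 to 12589 CPM in cKO, mostly *Spp1* (8495 and 5442 CPM) and *Col1a1* (5802 and 3650 CPM). Of these 9 markers, 7 were tested, of which 2 were higher (*Ibsp* by 2.01 and *Alpl* by 0.68 on the log2 scale) and 4 lower (*Col1a1* at -0.67, *Spp1* at -0.64 and *Runx2* at -0.21 among them), with 2 lower without cKO replicate 3. Macrophages carry class I molecules and immunoproteasomes in abundance, and the part of these markers in the results was not tested. In bulk RNA, a different number of cells of one type and a different amount of RNA per cell cannot be told apart.

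Class I promoters are known for a compact group of sites: an NF-κB site, an interferon response site bound by IRF factors, and a downstream module of which a CREB site (TGACG) and an NF-Y site (CCAAT, or ATTGG on the other strand) are parts and through which NLRC5 acts. RefSeq promoter sequences of the table built on GRCm38.p6 matched 8 of the 10 genes, and the 250 bases before each start were searched on both strands. Each printed stretch was then matched to GRCm39, where each was found once on its chromosome. The 200 bases of *H2-K1*, *H2-D1* and *B2m* are shown because these 3 genes share the module at one fixed spacing. The stretch between the RefSeq starts of *Psmb9* and *Tap1* is shown because these genes are transcribed away from each other from it. The *H2-D1* stretch lies downstream of the deposited gene start, since RefSeq places the start later. For the same reason, the stretch between *Psmb9* and *Tap1* lies within *Psmb9* as deposited. Capitals mark motif matches on either strand.
H2-K1, chr17:34219322-34219521, minus strand: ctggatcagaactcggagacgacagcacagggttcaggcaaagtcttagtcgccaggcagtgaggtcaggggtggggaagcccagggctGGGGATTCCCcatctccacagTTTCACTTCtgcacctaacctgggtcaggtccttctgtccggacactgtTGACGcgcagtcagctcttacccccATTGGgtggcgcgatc
H2-D1, chr17:35481870-35482069, plus strand: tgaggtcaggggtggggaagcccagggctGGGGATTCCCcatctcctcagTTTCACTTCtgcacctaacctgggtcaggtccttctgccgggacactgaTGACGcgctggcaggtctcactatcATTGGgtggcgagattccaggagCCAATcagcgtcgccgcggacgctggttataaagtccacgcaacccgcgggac
B2m, chr2:121977968-121978167, plus strand: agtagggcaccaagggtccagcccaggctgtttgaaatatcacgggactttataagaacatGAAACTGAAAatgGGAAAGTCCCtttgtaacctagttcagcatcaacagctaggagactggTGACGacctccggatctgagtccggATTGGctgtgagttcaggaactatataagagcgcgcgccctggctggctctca
Psmb9 to Tap1, chr17:34406305-34406529, plus strand: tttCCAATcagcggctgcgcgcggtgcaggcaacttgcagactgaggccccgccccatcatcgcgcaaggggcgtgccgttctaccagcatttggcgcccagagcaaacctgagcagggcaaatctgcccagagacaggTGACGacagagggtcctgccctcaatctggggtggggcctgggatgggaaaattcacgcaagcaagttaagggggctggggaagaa

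In the *H2-K1*, *H2-D1* and *B2m* promoters, TGACG was followed after exactly 20 bases by ATTGG. That arrangement, looked for after the sequences had been seen, stood in 30 of the 32851 promoters searched (0.0913%), belonging to 26 genes. Of the others, *H2-M3*, a nonclassical class I gene, and *Ibsp*, a bone matrix gene, were higher in cKO. *Tecpr1* (0.28), *Glyr1* (0.15) and *Nfe2l1* (0.097) were higher as well on the log2 scale. *Calu* (-0.31) and *Xpnpep1* (-0.45) also hold it and were lower on the log2 scale. The rest, *Hnrnpf* and *Per1* among them, did not pass the test or had too few counts or no entry. Over all tested genes, 20.1% were higher and 19.2% lower. The genes named here were chosen after their values were seen. An NF-κB site, searched as GGG, 2 free bases, TT, 1 free base and CC, was found in the same 3 promoters and in 4.11% of all promoters. An IRF site written as GAANNGAAA was found in *H2-K1* and *H2-D1* and in 6.31% of all promoters, and a longer form, GAAA repeated after 2 free bases, in *B2m* and in 2.98% of all. The single pieces were less particular: TGACG stood in 5 of the 8 matched promoters and in 17.8% of all, and CCAAT in 6 of the 8 and in 33.8% of all, in part within the paired arrangement itself. The stretch between *Psmb9* and *Tap1* held 1 TGACG and 1 CCAAT, not at that spacing, and each of these was counted for both genes. These matches describe letters, not bound sites.

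Of the 10 class I and immunoproteasome genes, 9 were higher in cKO than in WT, 0 were lower, and *Psmb10* did not pass the test. A gene was called at an adjusted p below 0.05 in the quasi-likelihood test of edgeR, corrected by the Benjamini-Hochberg method over the 17146 genes with enough counts, and all 10 genes passed that filter. Of all tested genes, 20.1% were higher and 19.2% lower by this rule. *H2-D1*, *B2m*, *Psmb8*, *Psmb9* and *Nlrc5* were higher by 2-fold or more, as were 6.56% of all tested genes, while 4.64% were lower by as much. The lowest cKO library lay above the highest WT library for the 9 called genes, as it did for 25.3% of all tested genes, against 23.9% with the opposite separation. The median log2 fold change of the 10 genes was 0.89, with a range of 0.23 to 2.31, beside a median of 0.0077 over all tested genes. Summed over the 10 genes, the level was 1236 to 1565 CPM in the WT libraries and 2854 to 2979 CPM in the cKO libraries.

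**Figure D1:**
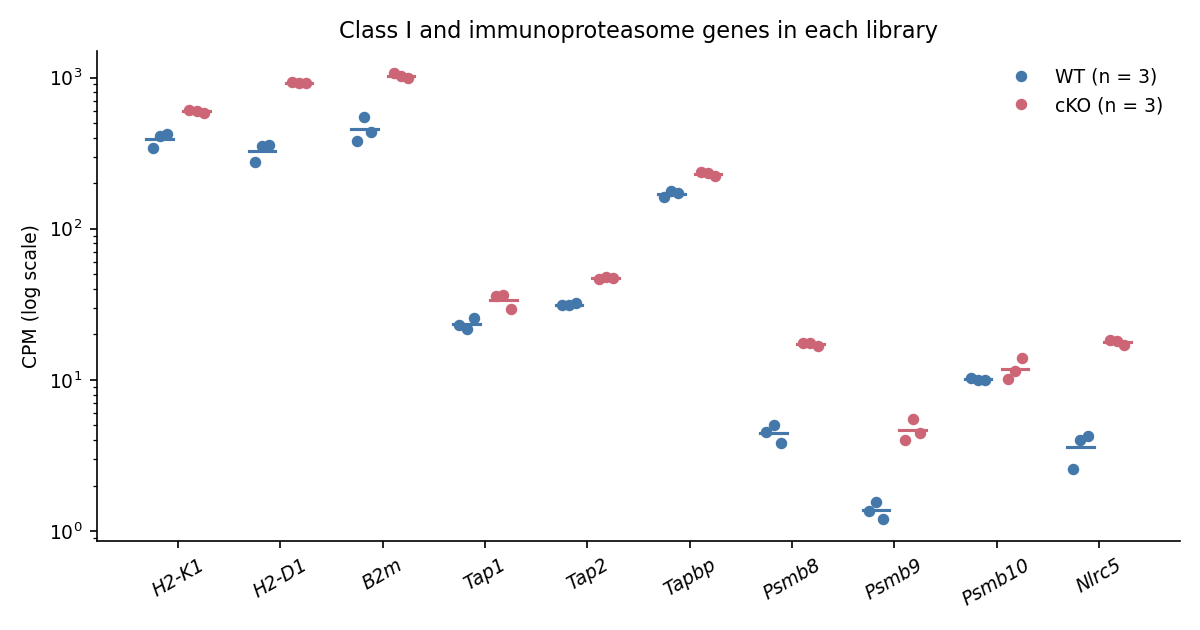
Level of each class I and immunoproteasome gene in each library, in CPM on a log axis. Points are libraries (WT blue, cKO red, n = 3 each) and bars are group means. The groups separate for every gene but *Psmb10*, whose cKO libraries start at 10.1 CPM, inside the WT range of 9.97 to 10.2 CPM.

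The classical heavy chains, which bind the peptide, were the most abundant of these genes after *B2m*. *H2-K1* (ENSMUSG00000061232, chromosome 17 from 34214991 to 34219321 of mm39, minus strand) had 343, 409.7 and 425 CPM in WT and 608, 601 and 587 CPM in cKO. The cKO libraries lay close together and above all WT libraries, and the log2 fold change was 0.61 (standard error 0.058; edgeR adjusted p = 1.42e-07). *H2-D1* (ENSMUSG00000073411, chromosome 17 from 35481706 to 35486475, plus strand) had 276, 354 and 356 CPM in WT and 931, 924 and 922 CPM in cKO. Its log2 fold change of 1.49 (standard error 0.069; edgeR adjusted p = 7.27e-12) was the larger of the pair, and the difference between the 2 fold changes was not tested. Of the 1968 windows of 150 bases, the read length, in the canonical *H2-D1* transcript, 35 (1.78%) also occur in *H2-Q1*, and no window of *H2-K1* occurs in another gene.

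*B2m* (ENSMUSG00000060802, chromosome 2 from 121978167 to 121983564, plus strand) encodes β2-microglobulin, the light chain of every class I molecule. It had 382, 550.4 and 436 CPM in WT and 1072, 1029 and 994 CPM in cKO. The WT libraries were the more scattered, and the log2 fold change was 1.18 (standard error 0.085; edgeR adjusted p = 3.66e-09). The first WT library was the lowest of its group for *H2-K1*, *H2-D1*, *B2m* and *Nlrc5*. Without it the log2 fold changes were 0.51, 1.37, 1.05 and 2.09, and each gene was still called.

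Levels of different genes can be compared only per length, here as RPKM (counts per kilobase of deposited gene length and 1000000 counts). In WT, *B2m* stood first at 530.1 ± 100.2 RPKM (SD, n = 3), followed by *H2-K1* at 133.6 ± 14.8 and *H2-D1* at 127.6 ± 17.8, which did not differ beyond their spread. In cKO, *B2m* was at 1200 ± 45.1 RPKM, and *H2-D1* at 359 ± 1.65 RPKM stood above *H2-K1* at 204 ± 3.64 RPKM. An alternative added after the data had been seen used the length of the canonical transcript in place of the deposited length. With it, *H2-K1* stood above *H2-D1* in WT beyond their spread (242 ± 26.8 against 155 ± 21.6 RPKM). It stood below *H2-D1* in cKO (369.9 ± 6.61 against 437 ± 2.01 RPKM). The comparison in WT thus depended on the length used. *Tapbp* followed at 47.1 ± 2.05 RPKM in WT and 63.4 ± 1.99 RPKM in cKO. The remaining genes were far lower, from *Tap2* at 8.33 ± 0.150 RPKM down to *Psmb9* at 0.375 ± 0.0467 RPKM in WT. *Nlrc5* at 0.425 ± 0.109 RPKM and *Psmb9* did not differ beyond their spread in WT, but with canonical transcript lengths *Psmb9* (1.01 ± 0.126 RPKM) stood above *Nlrc5* (0.476 ± 0.122 RPKM). *Psmb10* (6.95 ± 1.12 RPKM) and *Tap1* (6.19 ± 0.729 RPKM) did not differ beyond theirs in cKO.

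Other heavy chains were called in both directions. Of 22 other class I and class I-like heavy chains, 16 had enough counts to test, of which 5 were higher in cKO, 3 were lower and 8 did not pass the test, with a median log2 fold change of -0.023. *Hfe*, whose product pairs with β2-microglobulin and regulates iron uptake, was higher by 0.81 (log2; standard error 0.061; edgeR adjusted p = 5.54e-09). *Fcgrt*, the heavy chain of the neonatal Fc receptor, was higher by 0.25 (edgeR adjusted p = 0.000146). *H2-M3*, which presents formylated bacterial peptides, had 9.49, 10.8 and 10.2 CPM in WT and 13.7, 15.2 and 13.4 CPM in cKO, a log2 fold change of 0.47 (edgeR adjusted p = 0.00121). The other two higher genes, named after their values were seen, were *Mr1* (log2 fold change 0.19) and *H2-T24* (1.35, at 0.527 ± 0.0380 CPM in WT).

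The 3 lower genes all belong to the Qa region of chromosome 17, in which *H2-Q1*, *H2-Q4* and *H2-Q6* did not pass the test. *H2-Q7*, which encodes a Qa-2 heavy chain, had 6.58, 4.27 and 3.68 CPM in WT and 1.35, 1.06 and 1.08 CPM in cKO, a log2 fold change of -2.06 (standard error 0.249; edgeR adjusted p = 2.79e-06). *H2-Q10*, which encodes a secreted heavy chain, had 2.75, 2.54 and 2.34 CPM in WT and 0.404, 0.604 and 0.572 CPM in cKO, a log2 fold change of -2.27 (standard error 0.296; edgeR adjusted p = 6.75e-06). *H2-Q2* was counted 80, 127 and 69 times in WT and 6, 3 and 8 times in cKO, a log2 fold change of -3.91 (standard error 0.421; edgeR adjusted p = 6.59e-07). All 3 had few counts beside *H2-K1*, and of the 150-base windows of *H2-Q7*, 11.6% also occur in other genes, most of them in *H2-Q6*, so its count is uncertain. No window of the canonical *H2-Q2* or *H2-Q10* transcript was shared. However, 52 windows of *H2-Q1* also occur in transcripts of *H2-Q2*, so the count of *H2-Q2* may be uncertain too. *H2-T23*, which encodes Qa-1 and was named after its values were seen, did not pass the test, with 75.8, 83.2 and 85.7 CPM in WT, 82.1, 81.5 and 81.6 CPM in cKO and a difference of 0.0024 on the log2 scale (standard error 0.052). Without WT replicate 1, 5 of these genes in place of 3 were called lower.

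**Figure D2:**
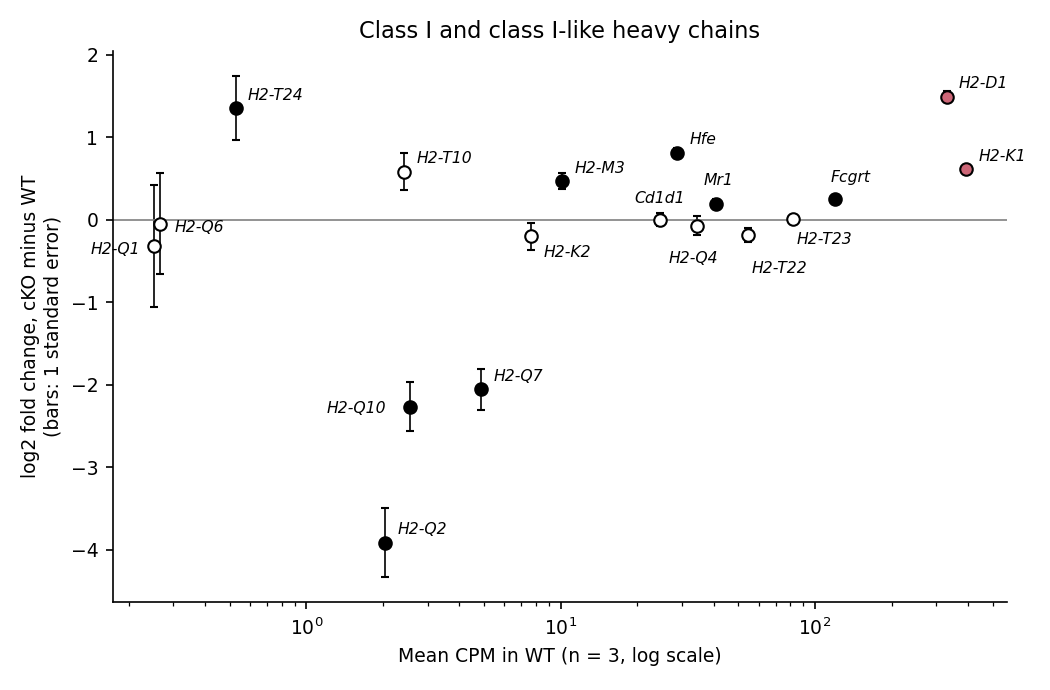
Difference between genotypes (log2 fold change, cKO minus WT) against the mean level in WT (CPM, log axis) for the class I and class I-like heavy chains with enough counts. Bars are 1 standard error, filled points passed the test, open points did not, and red marks *H2-K1* and *H2-D1*. The classical chains stand at the upper right at 0.61 and 1.49, and *H2-Q2*, *H2-Q7* and *H2-Q10* at -3.91, -2.06 and -2.27 among the low-abundance chains.

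The genes that carry and load peptide were higher by less than 2-fold each. *Tap1* and *Tap2* encode the subunits of the peptide transporter. *Tap1* (ENSMUSG00000037321, chromosome 17 from 34406527 to 34416199, plus strand) had 23.1, 21.7 and 25.7 CPM in WT and 35.8, 36.6 and 29.3 CPM in cKO. Its cKO replicate 3 lay nearest to WT, and the log2 fold change was 0.53 (standard error 0.088; edgeR adjusted p = 0.000101). *Tap2* (ENSMUSG00000024339, chromosome 17 from 34422501 to 34435295, plus strand) had 31.1, 31.3 and 32.2 CPM in WT and 46.8, 47.8 and 47.2 CPM in cKO. The libraries of each group differed little, and the log2 fold change was 0.59 (standard error 0.056; edgeR adjusted p = 1.55e-07). *Tapbp* (ENSMUSG00000024308, chromosome 17 from 34134873 to 34148266, plus strand) encodes tapasin, which holds the heavy chain at the transporter. It had 162.4, 176.6 and 173.6 CPM in WT and 235.9, 232.3 and 222.0 CPM in cKO, a log2 fold change of 0.43 (standard error 0.045; edgeR adjusted p = 4.16e-07). *Tapbp* shares 3422 bases with *Zbtb22* on its own strand, which had a log2 fold change of 0.26.

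Among 8 other genes of peptide trimming and loading, all tested, 3 were higher and 3 lower, and their median log2 fold change was -0.091. *Erap1*, the aminopeptidase that trims peptides in the endoplasmic reticulum, had 30.0, 31.4 and 31.3 CPM in WT and 47.6, 51.9 and 47.3 CPM in cKO, a log2 fold change of 0.66 (standard error 0.060; edgeR adjusted p = 7.69e-08). The general chaperones and peptidases of the list moved by far less. *Calr* (calreticulin, 0.14) and the aminopeptidase gene *Lnpep* (0.15) were higher, and the cytosolic peptidase gene *Tpp2* (-0.22), the disulfide isomerase gene *Pdia3* (-0.16) and the glycoprotein folding sensor gene *Uggt1* (-0.17) were lower on the log2 scale. The call of *Lnpep* was lost without WT replicate 2, WT replicate 3, cKO replicate 1 or cKO replicate 3 (edgeR adjusted p of 0.0657 to 0.170).

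**Figure D3:**
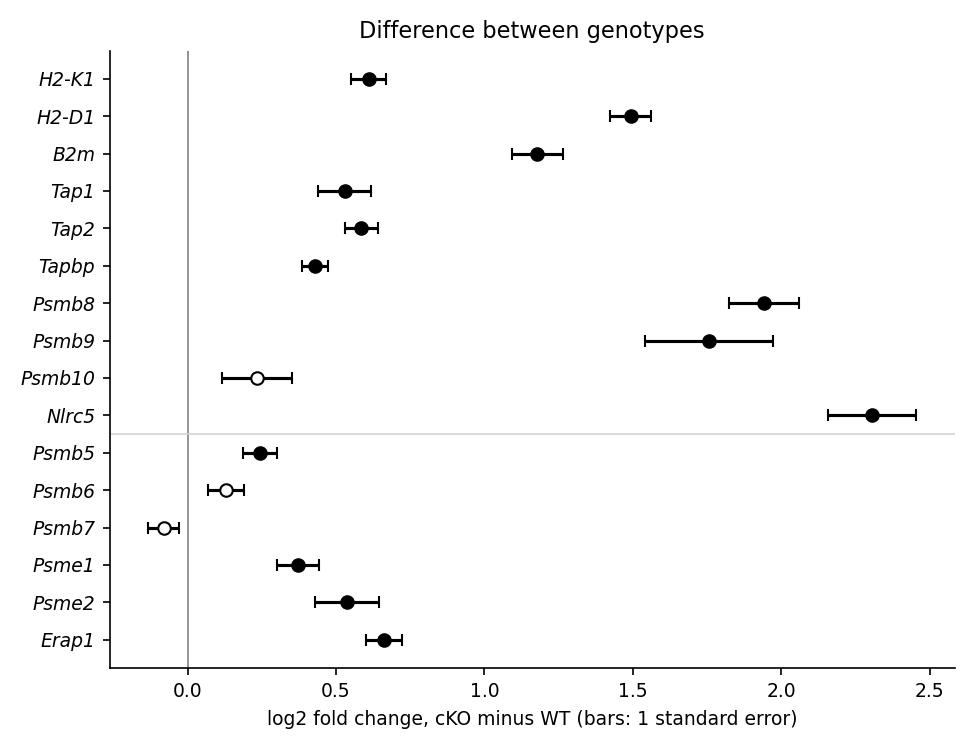
Log2 fold change (cKO minus WT, n = 3 each) of the 10 genes, above the grey line, and of the constitutive subunits, the PA28 genes and *Erap1* below it. Bars are 1 standard error, filled points passed the test and open points did not. *Nlrc5*, *Psmb8*, *Psmb9* and *H2-D1* lie between 1.49 and 2.31, and *Psmb10*, *Psmb6* and *Psmb7* are open.

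The inducible proteasome subunits divided into *Psmb8* and *Psmb9*, which rose, and *Psmb10*, which did not pass the test. *Psmb8* (ENSMUSG00000024338, chromosome 17 from 34416695 to 34420428, plus strand) encodes the chymotrypsin-like subunit of the immunoproteasome. It had 4.55, 5.04 and 3.81 CPM in WT and 17.6, 17.4 and 16.8 CPM in cKO, a log2 fold change of 1.94 (standard error 0.118; edgeR adjusted p = 3.19e-10). *Psmb9* (ENSMUSG00000096727, chromosome 17 from 34400961 to 34406738, minus strand) replaces the caspase-like subunit. It was counted 61, 77 and 47 times in WT and 169, 219 and 203 times in cKO, or 1.36, 1.55 and 1.21 CPM against 4.02, 5.51 and 4.47 CPM. The groups did not overlap, and the log2 fold change was 1.76 with the widest standard error of the 10 genes, 0.215 (edgeR adjusted p = 3.14e-06). *Psmb10* (ENSMUSG00000031897, chromosome 8 from 106662367 to 106665076, minus strand) replaces the trypsin-like subunit. It had 10.2, 10.0 and 9.97 CPM in WT and 10.1, 11.5 and 13.9 CPM in cKO. The first cKO library was level with WT and the third was the highest, and the log2 fold change was 0.23 (standard error 0.119; edgeR adjusted p = 0.136). Without cKO replicate 1, *Psmb10* was called as well, at 0.34 (edgeR adjusted p = 0.0488).

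The strand setting of the counting was not given in the sources used here, so reads of genes that overlap on opposite strands cannot be told apart. *Psmb10* lies wholly within *Gm16156*, a noncoding gene of the opposite strand that was higher by 0.60 (log2; edgeR adjusted p = 0.0424). *Gm16156* was counted 139, 127 and 78 times in WT and 131, 143 and 224 times in cKO, the third cKO library again being the highest. *Psmb8* shares 2139 bases with *Gm20496* of the opposite strand, which was counted 7, 11 and 10 times in WT and 70, 48 and 53 times in cKO, far fewer than the 148 to 762 counts of *Psmb8*. *Psmb9* and *Tap1* share 212 bases at their starts in the deposited positions. *Tap2* shares 3148 bases with *Gm15821* (log2 fold change 0.81, which did not pass the test) and 1923 bases with *Gm20496* (2.66). *Tapbp* shares 1209 bases with *Gm19412* (0.86), and *Nlrc5* shares 748 bases with *9330175E14Rik* (1.44). *B2m* lies within *Patl2*, which had 0 counts in every library. All of these partners lie on the opposite strand. The counts of these genes are uncertain to that extent.

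Of the 3 constitutive subunits, 1 was higher and 0 were lower. *Psmb5*, the partner of *Psmb8*, had 37.9, 38.7 and 37.4 CPM in WT and 42.8, 46.5 and 45.7 CPM in cKO and was higher by 0.24 on the log2 scale (standard error 0.057; edgeR adjusted p = 0.00251), although 13.5% of its 150-base windows also occur in other genes. *Psmb6*, the partner of *Psmb9*, had 57.6, 63.0 and 68.5 CPM in WT and 71.5, 68.9 and 66.3 CPM in cKO, a log2 fold change of 0.13 (standard error 0.060; edgeR adjusted p = 0.106). *Psmb7*, the partner of *Psmb10*, had 76.0, 78.6 and 70.5 CPM in WT and 69.1, 71.3 and 72.5 CPM in cKO, a log2 fold change of -0.081 (standard error 0.052; edgeR adjusted p = 0.248). Without WT replicate 3, *Psmb6* was called higher at 0.19 (edgeR adjusted p = 0.0107) and *Psmb7* lower at -0.13 (edgeR adjusted p = 0.0446). *Psmb7* was also called lower, at -0.15 (edgeR adjusted p = 0.0317), with upper quartile normalization.

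The ratio of each inducible subunit to its partner within a library does not depend on how libraries are scaled. Per length, *Psmb8* stood at 3.19%, 3.46% and 2.71% of *Psmb5* in WT (3.12% ± 0.380, SD, n = 3) and at 10.9%, 9.97% and 9.77% in cKO (10.2% ± 0.606, SD, n = 3). *Psmb9* stood at 1.20%, 1.26% and 0.904% of *Psmb6* in WT (1.12% ± 0.191, SD, n = 3) and at 2.87%, 4.09% and 3.45% in cKO (3.47% ± 0.608, SD, n = 3). *Psmb10* stood at 27.0%, 25.5% and 28.4% of *Psmb7* in WT (27.0% ± 1.42, SD, n = 3) and at 29.4%, 32.4% and 38.4% in cKO (33.4% ± 4.61, SD, n = 3). Every cKO library was above every WT library in all 3 ratios. The log2 ratio was higher in cKO by 1.71 for *Psmb8*, by 1.62 for *Psmb9* and by 0.30 for *Psmb10*, with a two-sided exact permutation p of 0.1 each (0.1 after Benjamini-Hochberg adjustment over the 3 ratios), the smallest that 3 against 3 libraries can give. Even in cKO, transcripts of the constitutive subunits were the more abundant. The percentages depend on the length used, and with canonical transcript lengths they were 11.7% and 38.4% for *Psmb8*, 1.68% and 5.20% for *Psmb9* and 11.9% and 14.7% for *Psmb10* in WT and cKO.

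**Figure D4:**
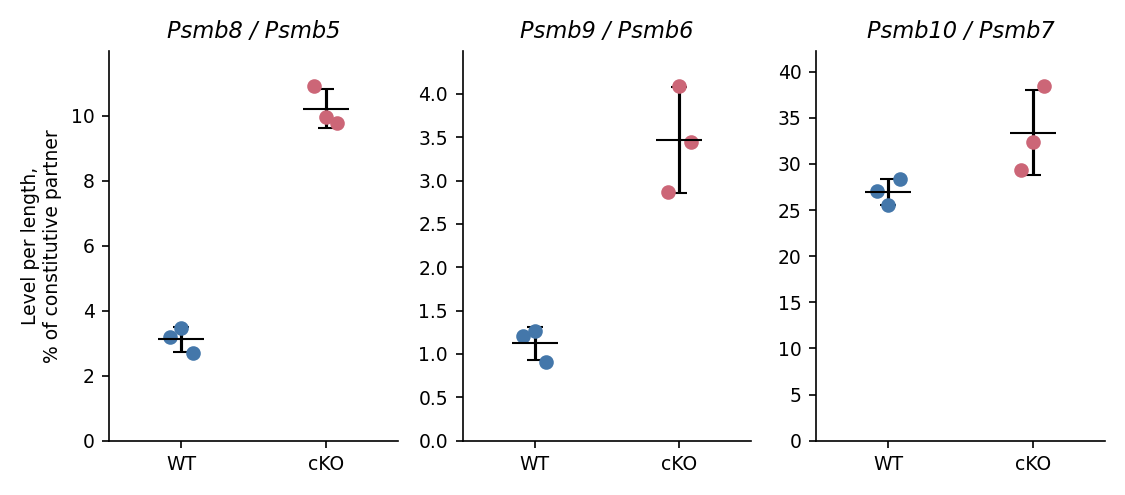
Level of each inducible proteasome subunit as a percent of the constitutive subunit it replaces, per gene length, with each axis starting at 0. Points are libraries (n = 3 per group), and horizontal and vertical bars are the mean and SD. *Psmb8* moved from 3.12% to 10.2% of *Psmb5*, and *Psmb9* from 1.12% to 3.47% of *Psmb6*.

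Few other genes of the proteasome passed the test. Of 12 other genes of the core particle, the assembly chaperone *Pomp* among them, 1 was higher and 0 were lower, and the median log2 fold change was -0.037 (range -0.13 to 0.18). In place of 0, 1 was called lower with DESeq2, limma-voom, robust estimation, RLE normalization, a mean CPM of at least 1, counts halved, without WT replicate 1 or without cKO replicate 2, and 2 with upper quartile normalization. The higher one, *Psma1* at 0.18 (edgeR adjusted p = 0.00876), was not called without WT replicate 1 (adjusted p = 0.0603) or without cKO replicate 1 (adjusted p = 0.0652). Among 4 genes of proteasome activators, 2 were higher and 0 lower. These were the subunit genes of PA28, the activator that interferon induces. *Psme1* had 30.6, 26.2 and 27.1 CPM in WT and 36.0, 37.6 and 35.1 CPM in cKO, a log2 fold change of 0.37 (edgeR adjusted p = 0.000377). *Psme2* had 16.2, 12.5 and 17.9 CPM in WT and 22.2, 21.8 and 23.4 CPM in cKO, a log2 fold change of 0.54 (edgeR adjusted p = 0.000632).

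*Nlrc5* (ENSMUSG00000074151, chromosome 8 from 95160984 to 95253900, plus strand), the class I transactivator, had the largest fold change of the 10 genes. It was counted 115, 198 and 166 times in WT and 777, 715 and 771 times in cKO, or 2.55, 3.99 and 4.28 CPM against 18.47, 17.98 and 16.97 CPM. The groups lay far apart, and the log2 fold change was 2.31 (standard error 0.150; edgeR adjusted p = 7.81e-10). *Ciita*, its class II counterpart, was counted 0 times in every WT library and 0, 2 and 5 times in cKO, too few to test. *Rfx5*, a subunit of the DNA-binding complex that both transactivators use, had 25.7, 25.1 and 25.3 CPM in WT and 25.9, 27.1 and 25.2 CPM in cKO and did not pass the test at a log2 fold change of 0.040 (standard error 0.069; edgeR adjusted p = 0.697), a direction that turned with upper quartile normalization.

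Of 19 regulators of class I transcription, 18 were tested, of which 9 were higher and 2 lower, with a median log2 fold change of 0.13. *Irf8*, an interferon regulatory factor of myeloid cells, had 3.31, 3.55 and 3.58 CPM in WT and 22.98, 22.83 and 23.05 CPM in cKO, a log2 fold change of 2.72 (standard error 0.101; edgeR adjusted p = 3.65e-13). *Irf2* (0.53) and *Nfya* (0.43), which encodes a subunit of NF-Y, were also higher on the log2 scale, and *Nfyb* (-0.30), another subunit of NF-Y, was lower. *Irf1*, a direct activator of class I and immunoproteasome promoters, was lower, with 46.5, 37.4 and 29.8 CPM in WT and 28.6, 29.5 and 27.7 CPM in cKO. The third WT library was close to cKO, and the log2 fold change of -0.41 (standard error 0.110; edgeR adjusted p = 0.00636) lost its call with robust dispersion estimation (adjusted p = 0.0893). Without WT replicate 2, 4 regulators in place of 2 were called lower, as also with upper quartile normalization.

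The interferon genes listed had no reads. *Ifnb1*, the type I interferon that LPS induces, and *Ifng*, the strongest inducer of class I genes, had 0 counts in all 6 libraries, which allows at most 0.0603 to 0.0758 CPM for counting error alone. Of the 7 receptor and kinase genes, 4 were higher and 3 lower. *Ifngr1* had 56.8, 63.6 and 63.7 CPM in WT and 79.1, 76.8 and 81.3 CPM in cKO, a log2 fold change of 0.37 (edgeR adjusted p = 3.11e-05), and *Tyk2* (0.32), *Ifnar1* (0.23) and *Ifnar2* (0.24) were higher as well. *Jak1* fell from 466.5, 464.3 and 474.1 CPM in WT to 358.1, 356.7 and 357.9 CPM in cKO, a log2 fold change of -0.39 (edgeR adjusted p = 7.45e-08). *Jak2* (-0.51) and *Ifngr2* (-0.17), which serve the interferon gamma receptor with *Jak1* and *Ifngr1*, were the other two that were lower.

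The MHC class II genes did not move as one with class I. Of 7 listed, 6 were tested, of which 3 were higher and 1 was lower. *H2-Ab1*, the β chain of the class II molecule I-A, had 17.8, 20.7 and 19.4 CPM in WT and 3.97, 3.57 and 3.02 CPM in cKO, a log2 fold change of -2.46 (standard error 0.123; edgeR adjusted p = 2.20e-11), while *Cd74*, the invariant chain, was higher by 1.47 at counts of 15 to 32 in WT and 57 to 69 in cKO. *H2-DMb1* was higher by 0.42, and *H2-DMb2* was counted 2, 1 and 0 times in WT and 26, 20 and 18 times in cKO.

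**Figure D5:**
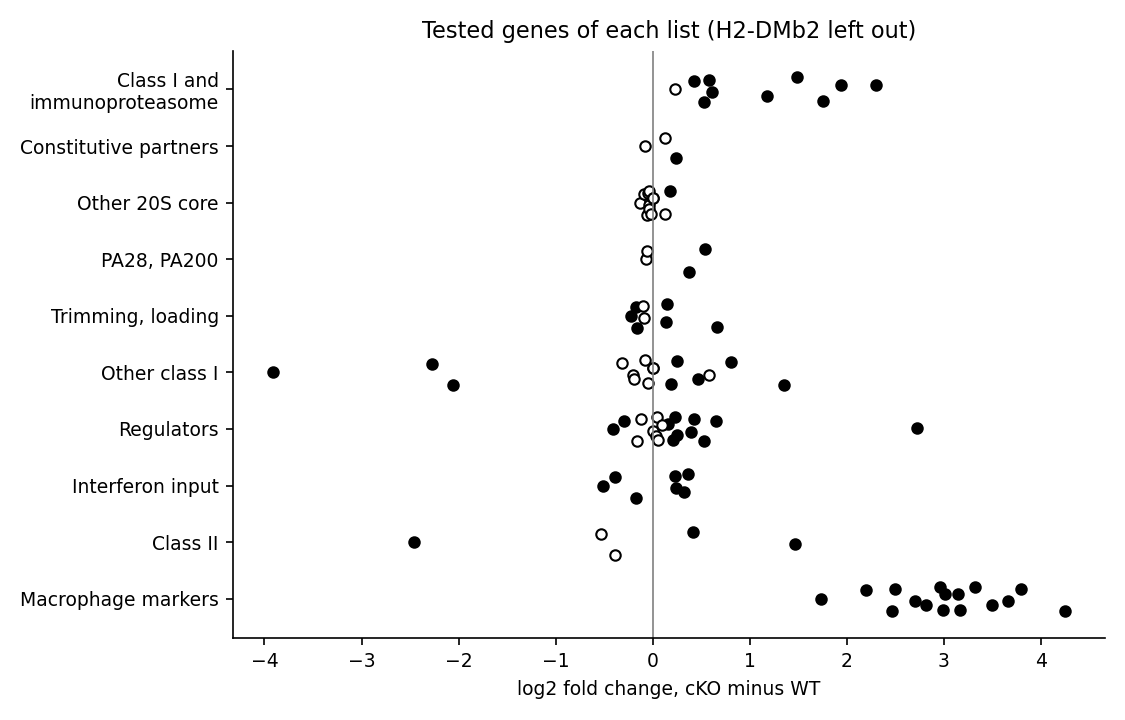
Log2 fold change (cKO minus WT) of the tested genes of the lists shown. Filled points passed the test and open points did not. Of the cell type marker lists, only the macrophage markers are drawn. *H2-DMb2* is left out because WT had at most 2 counts of it. The class I and immunoproteasome genes lie between 0.23 and 2.31, the other core proteasome genes between -0.13 and 0.18, and the macrophage markers between 1.73 and 4.25.

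Of the 10 genes, 7 lie on chromosome 17. *Psmb9*, *Tap1*, *Psmb8* and *Tap2* stand side by side within 34.3 kb, with 495 bases between the end of *Tap1* and the start of *Psmb8*. Within this stretch the log2 fold changes alternated along the chromosome, with 1.76 for *Psmb9*, 0.53 for *Tap1*, 1.94 for *Psmb8* and 0.59 for *Tap2*. *Psmb9* and *Tap1*, which start from the shared stretch printed above, thus differed in size of change, and the difference between them was not tested.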

How the data were processed

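RNA was extracted from 6 stimulated osteocyte cultures, 3 WT and 3 cKO by the sample labels, and sequenced as 150 bp paired-end reads from a directional library kit. The authors trimmed the reads, aligned them to mm39 with HISAT2 2.0.5 and counted them on genes with featureCounts, 1.55.0-p3 by the labels and another release by the methods, which also name RSEM. They deposited raw counts per gene, not normalized, with symbols, positions and a gene length. Overlaps between genes were taken from the deposited positions. GENCODE M39 (GRCm39) was the annotation for transcripts. For 55980 of the 56748 genes it gave the deposited chromosome, with a matching start or end for 76.7% of these.

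Totals were 39566835 to 49734046 counts per library. Intervals and floors cover counting error only, since reads are not independent molecules, and even numbers made up 63.4% to 65.7% of counts from 1 to 10, so that mates of a pair may each have been counted. Differences were fitted to these counts in R 4.3.3 by edgeR 4.0.16 (filterByExpr, TMM, non-robust glmQLFit, glmQLFTest) on genotype alone, with Benjamini-Hochberg adjusted p-values over 17146 genes. The standard error is the log2 fold change divided by the root of F. A count of 0 was taken to allow 3 counts, divided by the library total without TMM scaling. This limit would be higher if mates were each counted. Subunit ratios used counts plus 0.5 on the log2 scale and scipy 1.17.1. The biological coefficient of variation was 8.36%. Replicates differed by more than sampling noise (chi-square per gene 4.81 to 13.9) and were all kept. The fit was also run on counts simulated from its own dispersions. That run has no outcome given here and does not test how well the fit describes these libraries.

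The genes and lists were chosen with earlier results of these data known. Named in full were the 10 genes and the 3 constitutive partners. From each other list the up to 3 higher and up to 3 lower genes with the smallest p-values were named, with *Ciita*, *Irf1*, *Rfx5*, *Ifnb1*, *Ifng*, *Csf1r*, *Dmp1* and *Sost* whatever their value, and 1 gene that this rule names is not reported here. Alternatives were DESeq2 1.42.0, limma-voom (limma 3.58.1), robust estimation, 3 other normalizations, 2 other filters, a threshold of 0.01, counts halved, a replicate block, each library left out, a pseudocount of 5 for the ratios and, added later, canonical transcript lengths. Protein sequences were not used here.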

Additional observations from a re-analysis of the deposited data

How the results depend on the processing

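The 9 called genes kept their direction and their call under all 17 alternatives run for each gene, including each library left out in turn, and the counts of 9 higher and 0 lower were 9 to 10 and 0 with a library left out, and 5 higher by 2-fold or more in each. Across these alternatives the log2 fold change was 0.51 to 0.67 for *H2-K1*, 1.37 to 1.55 for *H2-D1*, 1.05 to 1.33 for *B2m*, 0.46 to 0.62 for *Tap1*, 0.52 to 0.61 for *Tap2*, 0.36 to 0.46 for *Tapbp*, 1.84 to 2.03 for *Psmb8*, 1.62 to 1.86 for *Psmb9* and 2.09 to 2.43 for *Nlrc5*. The highest adjusted p of these called genes was 0.00486, for *B2m* in edgeR with robust estimation, where its standard error was 0.157. *Psmb10* ranged from 0.10 to 0.34 (adjusted p of 0.0488 to 0.575) and passed the threshold in 1 of the 17, without cKO replicate 1. With a library left out, the log2 ratio difference was 1.62 to 1.79 for *Psmb8*, 1.47 to 1.75 for *Psmb9* and 0.19 to 0.39 for *Psmb10*.

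Libraries with the same replicate number showed no shared deviation from their group means (r of -9.23e-05, 0.00116 and -0.0136). That cannot show whether equal numbers mark a shared animal or day, which the labels do not state. With the replicate number as a block, 9 genes were higher and 0 lower, and *Psmb10* had a log2 fold change of 0.22. Blocked, the ratio differences were 1.71, 1.62 and 0.30, with an exact sign-flip permutation p of 0.25 each, the smallest it can give.

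Upper quartile normalization shifted the median of all tested genes to -0.061 and the calls to 2799 higher and 4294 lower, from 3445 and 3285. Under it *Rfx5* turned to -0.0287 (edgeR adjusted p = 0.780), *Calr* and *Lnpep* lost their calls, and 2 other core proteasome genes were called lower, with 0 higher; the cause was not tested. The replicates limit the precision of the low genes most, *Psmb9* and *Nlrc5* among them.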
